A study of Mus musculus with 3 samples.

Results

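Genes of iron recycling and of red-pulp-like macrophages were followed in single cells of 3 neuroblastoma tumors from TH-MYCN mice. The set held 10 genes (Spic, Slc40a1, Hmox1, Cd163, Cd5l, Vcam1, Fth1, Ftl1, Tfrc and Slc11a1) of the 31053 genes counted. It was chosen by name with earlier results in view, that is, selected on UMI levels of these genes by cell class in the same 3 tumors. Their levels by class are therefore a description, with no test. Each tumor came from 1 mouse that was heterozygous for the MYCN transgene, which the tyrosine hydroxylase promoter drives in the sympathoadrenal lineage, and tumors 1, 2 and 3 were from mice aged 62 days, 79 days and 63 days. The tumors are 1 group with no tumor-free control, so the comparisons are between cell classes and each tumor is a replicate. Whole tumors were dissociated with Liberase and DNase, and 3′ ends were counted with 10x Chromium v3.1 as unique molecular identifiers (UMIs, which mark single RNA molecules).

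The cells the authors kept numbered 1914, 1221 and 2515, or 5650 in all, of 3257, 4327 and 6038 barcodes, with median UMIs of 4282.5, 1594 and 1816. Kept barcodes common to 2 tumors numbered 3 between tumors 1 and 2, 0 between tumors 1 and 3, and 1 between tumors 2 and 3. Classes were built without the 10 genes and named "-like" from marker genes. Macrophage-like cells split into Apoe+-like (257 cells: 111, 49 and 97), Ccr2+-like (279: 243, 11 and 25) and Pecam1+-like cells (310: 240, 23 and 47), with median UMIs of 1925, 10409 and 5477. The Apoe+-like class joined a subcluster led by Gpnmb (145 cells, median 1342 UMIs) and a subcluster led by Ccl8 (112 cells, median 12551 UMIs). The 8 tumor cell markers, Dbh among them, were also read in the other classes, at 13.1 to 201 CPM (counts-per-million of the UMIs of a sum of cells, here with no further scaling) in tumor 1, 316 to 1039 in tumor 2 and 623 to 1510 in tumor 3, against 1841 to 1990 in tumor-like cells. In the Gpnmb-led subcluster they reached 90.3, 1322 and 1680 CPM, and in the Ccl8-led subcluster 31.2, 191 and 446. The part of such shared RNA in the results was not tested. Part of the values are therefore also given by subcluster or without the Gpnmb-led cells.

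Macrophages of the splenic red pulp engulf aged red cells and return their iron to the blood. Heme oxygenase 1, encoded by Hmox1, opens the heme ring and frees its iron. Ferritin, a shell of heavy (Fth1) and light (Ftl1) chains, stores the iron, and ferroportin, encoded by Slc40a1, exports it. The transcription factor SPIC is needed for red pulp macrophages to form, and VCAM1, CD163 and CD5L are proteins that such cells are known to carry or secrete. Most other cells take up iron from transferrin through the receptor encoded by Tfrc.

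Iron regulatory proteins bind RNA hairpins called iron-responsive elements when iron is scarce. Such an element in a 5′ untranslated region (UTR) blocks translation, and elements in the 3′ UTR of Tfrc shield its RNA from decay, so RNA level and protein level need not move together for these genes. The hairpins are shown because they tie storage, export and uptake to a common control that a UMI count does not read. A search of the annotated UTRs on GRCm38 for a C, any 5 bases, CAGTG and any 1 base, with the 5 bases before the loop able to pair with the 5 after it (G with T allowed) matched, on the transcript strand, Fth1, Ftl1, Slc40a1 and Tfrc among the 10 genes. The same search matched 0.148% of 20899 genes with a 5′ UTR and 0.614% of 21022 genes with a 3′ UTR. In the sequences, capitals mark the 6-base loop.
Fth1, 5′ UTR, chr19:9982732-9982760, plus strand: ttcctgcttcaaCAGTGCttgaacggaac
Ftl1, 5′ UTR, chr7:45459779-45459807, minus strand: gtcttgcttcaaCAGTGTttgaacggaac
Slc40a1, 5′ UTR, chr1:45925465-45925493, minus strand: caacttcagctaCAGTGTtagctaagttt
Tfrc, 3′ UTR, chr16:32631219-32631247, plus strand: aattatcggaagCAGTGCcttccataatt
Tfrc, 3′ UTR, chr16:32631598-32631626, plus strand: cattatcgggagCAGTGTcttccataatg
Tfrc, 3′ UTR, chr16:32631663-32631691, plus strand: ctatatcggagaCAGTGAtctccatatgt
Tfrc, 3′ UTR, chr16:32631710-32631738, plus strand: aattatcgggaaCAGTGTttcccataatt

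Counts were summed over the cells of a class in each tumor, where it had at least 10 cells, which gave 32 sums of 14 classes. Levels of genes are CPM after edgeR's TMM scaling, listed for tumors 1, 2 and 3 in that order, with the mean ± SD where n = 3. Fewer cells that carry an RNA and less RNA per cell cannot be told apart in a sum, so the share of cells with a UMI is given beside it. Among these sums, the mean was highest in Apoe+-like cells for 8 of the 10 genes and in Pecam1+-like cells for Slc11a1. For Tfrc it was highest in T cell-like cells, from 27 UMIs.

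**Figure D1:**
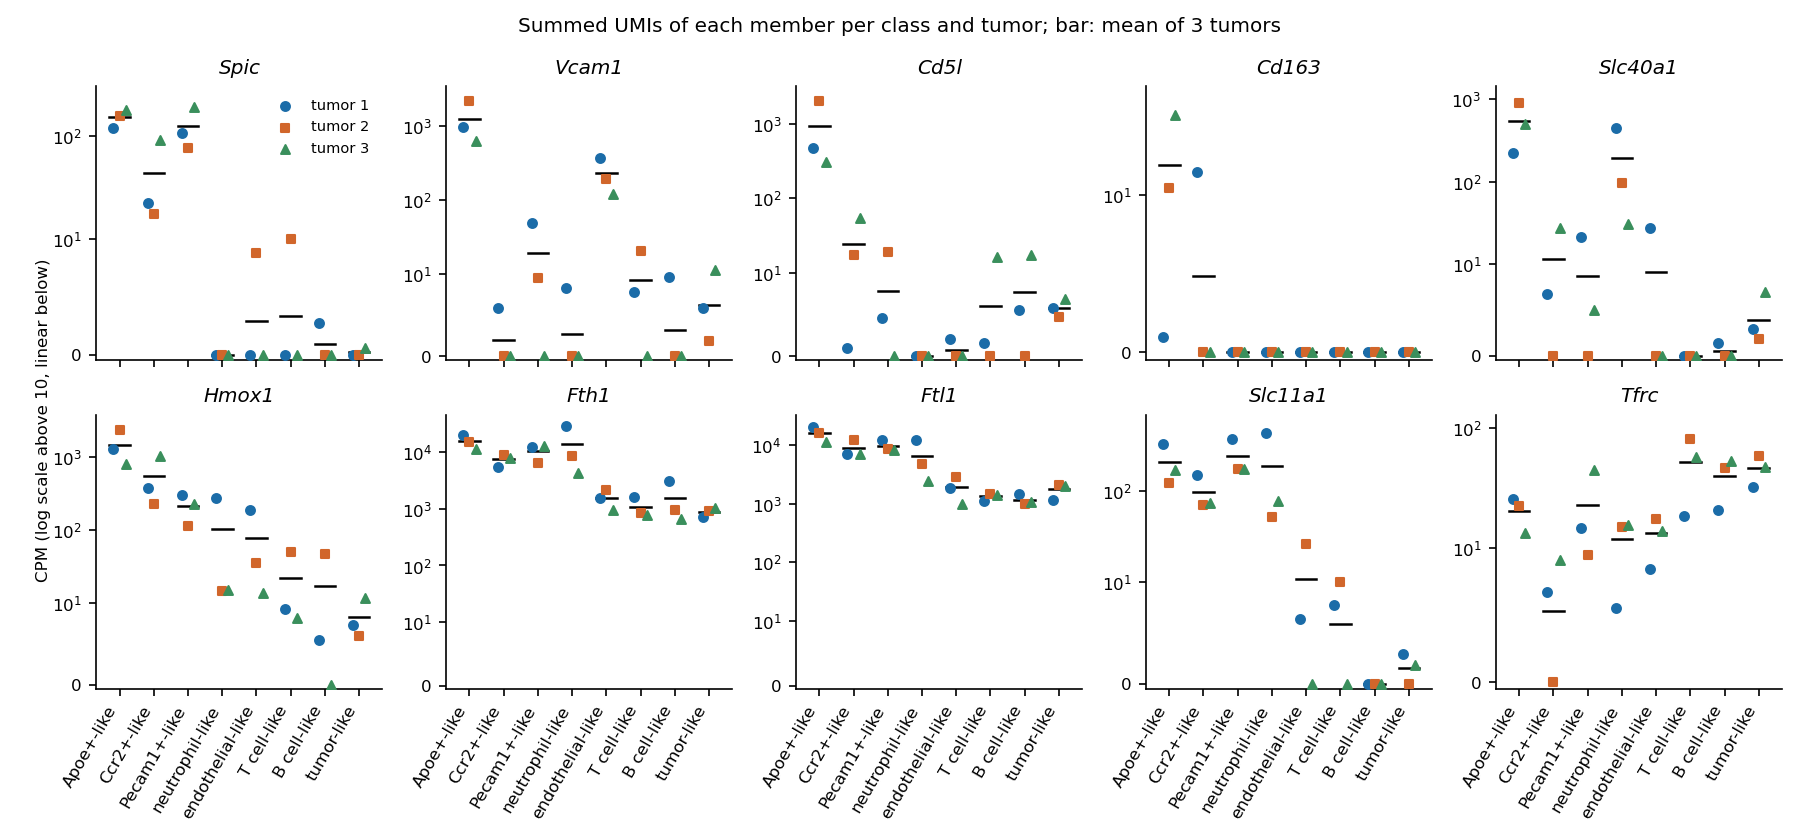
CPM of the 10 genes (log scale above 10, linear below) in 8 classes, with 1 symbol per tumor and a bar at the mean of the 3 tumors. Vcam1, Cd5l and Slc40a1 lie far higher in Apoe+-like than in the other macrophage-like cells, and Spic lies near the same level in Pecam1+-like cells. The mean of Tfrc was highest in T cell-like cells, from few UMIs, with tumor-like cells next among the classes drawn.

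Spic (chr10:88674772-88685015) was read in each macrophage subset and in few cells of other named classes. Apoe+-like cells had 119, 156 and 179 CPM (151 ± 30.3) and Pecam1+-like cells 107, 76.1 and 189 CPM (124 ± 58.5). Ccr2+-like cells had 22.7, 17.5 and 91.5 CPM (43.9 ± 41.3). The Apoe+-like and Pecam1+-like levels overlapped, and the Ccr2+-like level lay below both in tumors 1, 2 and 3. These 3 subsets held 83.9% of the 564 Spic UMIs, and an unnamed macrophage-like subcluster of 53 cells held another 74 UMIs. Spic was found in 26.1% of Apoe+-like cells (95% exact binomial interval 20.8 to 31.9), 24.2% of Pecam1+-like cells (19.5 to 29.4) and 10.8% of Ccr2+-like cells (7.37 to 15.0), although Ccr2+-like cells were the deepest of the 3. Tumor-like cells, with a median of 1636 UMIs, gave 2 of 3354 cells, and neutrophil-like cells, at 2468 UMIs, gave 0 of 312, which allows a share of up to 0.962%. Thinned to 500 UMIs per cell, the shares were 3.50% in Apoe+-like, 5.16% in Pecam1+-like and 0.717% in Ccr2+-like cells. Intervals here and elsewhere cover counting error only.

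Vcam1 (chr3:116109949-116129688), an adhesion receptor for integrins that is also known on activated endothelium, separated the subsets. Apoe+-like cells had 957, 2148 and 619 CPM (1241 ± 803), Pecam1+-like cells 48.4, 9.51 and 0 CPM, and Ccr2+-like cells 5.80, 0 and 0 CPM from 12 UMIs in 4 cells. The lowest Apoe+-like sum was above the highest of the other subsets. Endothelial-like cells had 368, 194 and 118 CPM, CAF-like cells (cancer-associated fibroblasts) 88.2 and 98.2 CPM in tumors 1 and 3, and mesothelial-like cells 543 CPM in tumor 1. In endothelial-like cells, 3 cells gave 69.0% of the Vcam1 UMIs. A Vcam1 UMI was found in 52.5% of Apoe+-like cells (46.2 to 58.8), 3.87% of Pecam1+-like cells and 1.43% of Ccr2+-like cells, against 1.28% of tumor-like cells. After thinning, 30.0% of Apoe+-like cells still had a Vcam1 UMI and 1.29%, 0.358% and 0.417% of the Pecam1+-like, Ccr2+-like and tumor-like cells, so the Ccr2+-like share was no higher than that of the tumor-like cells.

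Cd5l (chr3:87357881-87371073), a secreted scavenger-receptor protein of tissue macrophages, had the largest share of its UMIs in Apoe+-like cells of the 10 genes, as they held 93.0% of its 1013 UMIs. Their levels were 467, 1993 and 305 CPM (922 ± 931), against 0.966, 17.5 and 54.9 CPM in Ccr2+-like cells and 4.64, 19.0 and 0 CPM in Pecam1+-like cells. Few cells set the level, since 1 cell gave 235 of the 492 UMIs of tumor 1 and 3 cells gave 78.3% of them. A Cd5l UMI was found in 25.3% of Apoe+-like cells (14.8% thinned), 0.984% of tumor-like cells (0.358% thinned) and 0 of 312 neutrophil-like cells. Cd163 (chr6:124304656-124330527), the receptor for hemoglobin bound to haptoglobin, was close to absent from these tumors. It had 46 UMIs in 9 of the 5650 cells, with 0.95, 11.1 and 36.4 CPM in Apoe+-like cells, and 28 of its 30 UMIs in Ccr2+-like cells came from 1 cell.

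**Figure D2:**
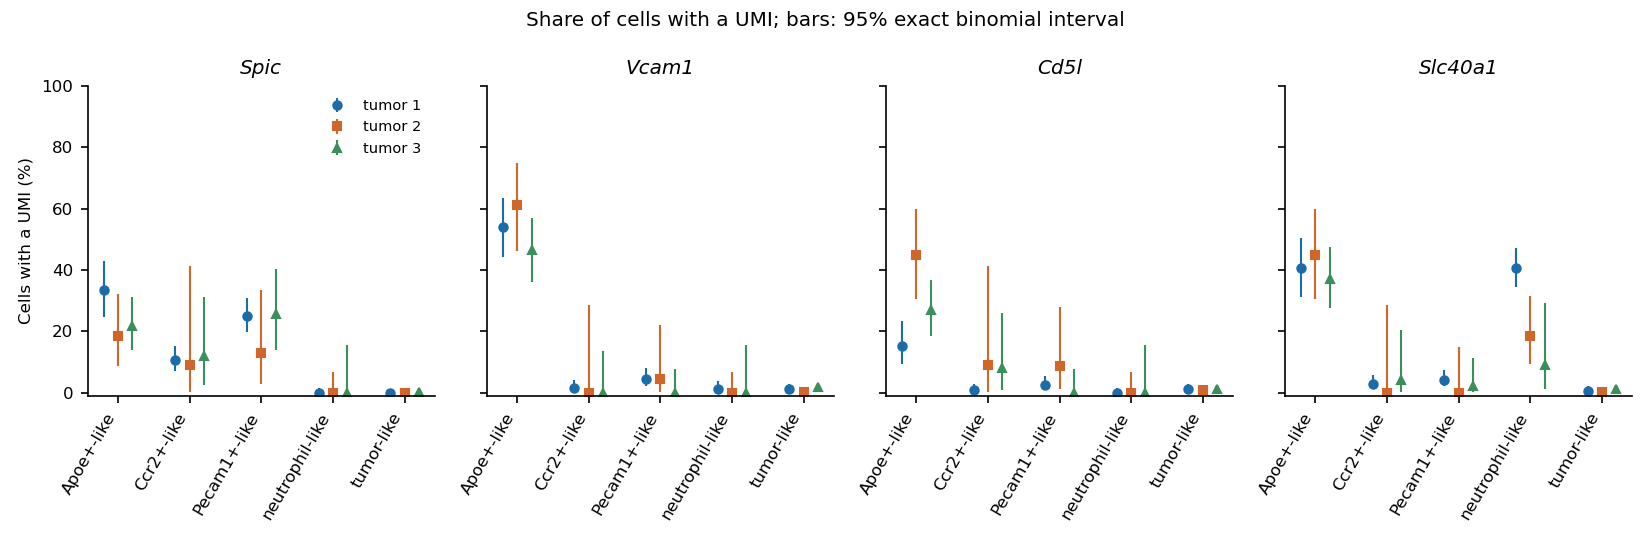
Percent of cells with a UMI of Spic, Vcam1, Cd5l and Slc40a1 in 5 classes and 3 tumors, with 95% exact binomial intervals as bars. Apoe+-like cells lie above Ccr2+-like and Pecam1+-like cells for Vcam1, Cd5l and Slc40a1 in each tumor, Spic is as frequent in Pecam1+-like cells, and neutrophil-like cells of tumor 1 reach the Apoe+-like share of Slc40a1.

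Hmox1 (chr8:75093621-75100589) was read in each macrophage subset, with the highest mean in Apoe+-like cells. Their levels were 1265, 2365 and 798 CPM (1476 ± 805). Ccr2+-like cells had 376, 228 and 1034 CPM (546 ± 429) and Pecam1+-like cells 300, 114 and 224 CPM (213 ± 93.4). The groups overlapped through the Ccr2+-like sum of tumor 3, in which 3 of 25 cells gave 98.2% of the Hmox1 UMIs. With CPM scaled among the subcluster sums, Ccl8-led cells had 1119, 3882 and 1183 CPM and Gpnmb-led cells 1653, 98.9 and 217 CPM. The highest sum of the other subsets was then 1084 CPM. A Hmox1 UMI was found in 53.3% of Apoe+-like, 148 of 279 Ccr2+-like and 47.4% of Pecam1+-like cells, against 1.61% of tumor-like cells. Thinning to 500 UMIs parted these shares into 20.2%, 8.96% and 7.74%. Neutrophil-like cells had 278, 14.9 and 15.5 CPM of Hmox1 and endothelial-like cells 186, 35.2 and 13.9 CPM. In both classes tumor 1 was the high sample, but 1 endothelial-like cell of tumor 1 gave 75 of its 88 Hmox1 UMIs.

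Slc11a1 (chr1:74375195-74386062), the NRAMP1 transporter that moves iron and other metal ions out of phagosomes, marked phagocytes at large. Pecam1+-like cells had 371, 171 and 174 CPM (239 ± 115), Apoe+-like cells 326, 122 and 169 CPM (206 ± 107) and neutrophil-like cells 427, 52.2 and 77.3 CPM (185 ± 209). Ccr2+-like cells had 151, 70.1 and 73.2 CPM (98.0 ± 45.6). The first 3 classes did not differ beyond their spread, and tumor 1 was highest in each of the 4. B cell-like cells had 0 UMIs in 245 cells, which allows a share of up to 1.22%, and tumor-like cells had 8 cells with a UMI of 3354.

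Slc40a1 (chr1:45908068-45926523), which encodes the only known iron exporter of mammalian cells, was found in Apoe+-like and neutrophil-like cells. Apoe+-like cells had 221, 902 and 503 CPM (542 ± 342). Ccr2+-like cells had 6.76, 0 and 27.4 CPM and Pecam1+-like cells 21.2, 0 and 4.98 CPM, so the subsets did not overlap. Neutrophil-like cells had 446, 96.9 and 30.9 CPM (191 ± 223) and lay above the Apoe+-like cells in tumor 1 and far below them in tumors 2 and 3. Spread over cells, 108 of 312 neutrophil-like cells (34.6%, 29.3 to 40.2) had a Slc40a1 UMI, with no cell above 5 UMIs, and 40.1% of Apoe+-like cells had one. By tumor, the neutrophil-like shares were 40.7% (34.4 to 47.2), 18.5% (9.25 to 31.4) and 9.09% (1.12 to 29.2), so the interval of tumor 1 did not meet those of the other two. Tumor-like cells gave 0.835% and T cell-like cells 0 of 262, which allows up to 1.15%. Thinned, the share was 13.6% in Apoe+-like and 9.62% in neutrophil-like cells, against 0.209% in tumor-like cells. Neutrophil markers were at 149941, 140774 and 45805 unscaled CPM in the neutrophil-like sums, and the low value of tumor 3 came from 22 cells. Erythroid marker RNA in those sums was at 3291, 555 and 336 unscaled CPM, highest in tumor 1 as Slc40a1 was. This was not particular to them, as its median over classes other than tumor-like and erythroid-like was 1509, 55.3 and 123. Tumor cell markers in the neutrophil-like sums were at 36.8, 840 and 1120 unscaled CPM, lowest in tumor 1. The part of either in the difference of Slc40a1 between tumors was not tested.

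Both ferritin chains were abundant in phagocytes. Fth1 (chr19:9980598-9985098) had 19453, 14772 and 11297 CPM in Apoe+-like cells (15174 ± 4093), 11850, 6411 and 12809 CPM in Pecam1+-like cells (10357 ± 3451), and 5304, 8817 and 7786 CPM in Ccr2+-like cells (7302 ± 1806). Ftl1 (chr7:45457944-45459884) had 20883, 16046 and 11552 CPM in Apoe+-like cells (16160 ± 4667), and 9688 ± 2205 and 8847 ± 3011 CPM in Pecam1+-like and Ccr2+-like cells. The subsets overlapped for each chain. With CPM scaled among the subcluster sums, Ccl8-led cells had 17524, 23540 and 16169 CPM of Fth1 and 18462, 25078 and 16164 CPM of Ftl1. The highest sums of the other subsets were then 13478 CPM of Fth1 and 14725 CPM of Ftl1. Gpnmb-led cells had 20112, 1863 and 4024 CPM of Fth1 and 27474, 2901 and 4729 CPM of Ftl1. Tumor-like cells had 725, 916 and 1022 CPM of Fth1 and 1155, 2115 and 1977 CPM of Ftl1. High Fth1 was not particular to phagocytes. Mesothelial-like cells had 14869 CPM in tumor 1, and plasmacytoid dendritic-like cells 9945 and 1947 CPM in tumors 1 and 3. Reads of Ftl1 may be shared with the pseudogene Ftl1-ps1, which had 153, 66.8 and 56.3 CPM in Apoe+-like cells. Together the chains took 3.28%, 3.06% and 2.29% of all UMIs of Apoe+-like cells. By subcluster they took 3.23%, 4.01% and 2.94% in the Ccl8-led and 4.01%, 0.579% and 0.974% in the Gpnmb-led cells.

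The balance of the chains differed between Apoe+-like, neutrophil-like and tumor-like cells, but not between the macrophage subsets beyond their spread. Each UMI stands for an RNA molecule whatever its length, but reads shared with Ftl1-ps1 could lower the count of Ftl1. The heavy-chain share, Fth1 as a percent of Fth1 and Ftl1 UMIs, is therefore compared between classes only. It was 48.2%, 47.9% and 49.4% in Apoe+-like cells, 69.7%, 63.6% and 64.0% in neutrophil-like cells and 38.6%, 30.2% and 34.1% in tumor-like cells. These 3 classes did not overlap. Pecam1+-like cells had 49.2%, 42.6% and 60.9% and Ccr2+-like cells 42.4%, 41.7% and 52.6%, on both sides of the Apoe+-like values. Plasmacytoid dendritic-like cells had 79.9% and 63.3% in tumors 1 and 3, and mesothelial-like and plasma cell-like cells, summed in tumor 1 alone, had 84.6% and 19.0%. T cell-like cells had 58.9%, 35.5% and 35.1%, and tumor 1 stood apart there. Tumor cell markers in these T cell-like sums were at 25.2, 939 and 1510 unscaled CPM, and their part in the shares was not tested. Fth1 in neutrophil-like cells spanned 27985, 8278 and 4282 CPM, the widest spread of a ferritin chain in the 8 classes plotted.

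Tfrc (chr16:32608920-32632794) had its highest mean levels outside the macrophage-like cells. T cell-like cells had 18.6, 80.2 and 57.5 CPM (52.1 ± 31.1), plasmacytoid dendritic-like cells 72.2 and 27.2 CPM, tumor-like cells 32.1, 58.3 and 47.3 CPM, and B cell-like cells 20.7, 46.6 and 52.4 CPM. These neighbours in the order overlapped. In the T cell-like sum of tumor 2, 1 cell gave 6 of the 8 Tfrc UMIs, so the first place of T cell-like cells rests on few UMIs. Apoe+-like cells had 25.6, 22.3 and 13.2 CPM (20.4 ± 6.41), neutrophil-like cells 5.50, 14.9 and 15.5 CPM, and Ccr2+-like cells 6.76, 0 and 9.15 CPM. Pecam1+-like cells had 14.6, 9.51 and 44.9 CPM, and their tumor 3 sum, of 9 UMIs, was near that of tumor-like cells. Apoe+-like cells lay below tumor-like cells in each tumor. Tfrc is sparse, with 527 UMIs in 434 cells. A Tfrc UMI was found in 10.5% of Apoe+-like, 9.03% of Pecam1+-like, 8.02% of T cell-like and 7.16% of tumor-like cells. Thinned to 500 UMIs, the shares were 0.778%, 1.94%, 3.05% and 2.06%, so the order of the unthinned shares is not read. Plasmacytoid dendritic-like cells had a share of 34.2% (3.42% thinned). Erythroid-like cells (6, 9 and 12 by tumor) had 16 Tfrc UMIs in 6 of 27 cells (22.2%, 3.70% thinned). Only their tumor 3 sum, with 1 of these UMIs, had enough cells to enter the levels. Across the 32 sums, the Pearson correlation of log2 CPM of Tfrc was -0.48 with Slc11a1, -0.46 with Ftl1, -0.45 with Fth1 and -0.44 with Hmox1, and -0.26 to -0.06 with Slc40a1, Vcam1, Spic and Cd5l. These are weak correlations between sums that share tumors and depth, and they are given as a description.

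**Figure D3:**
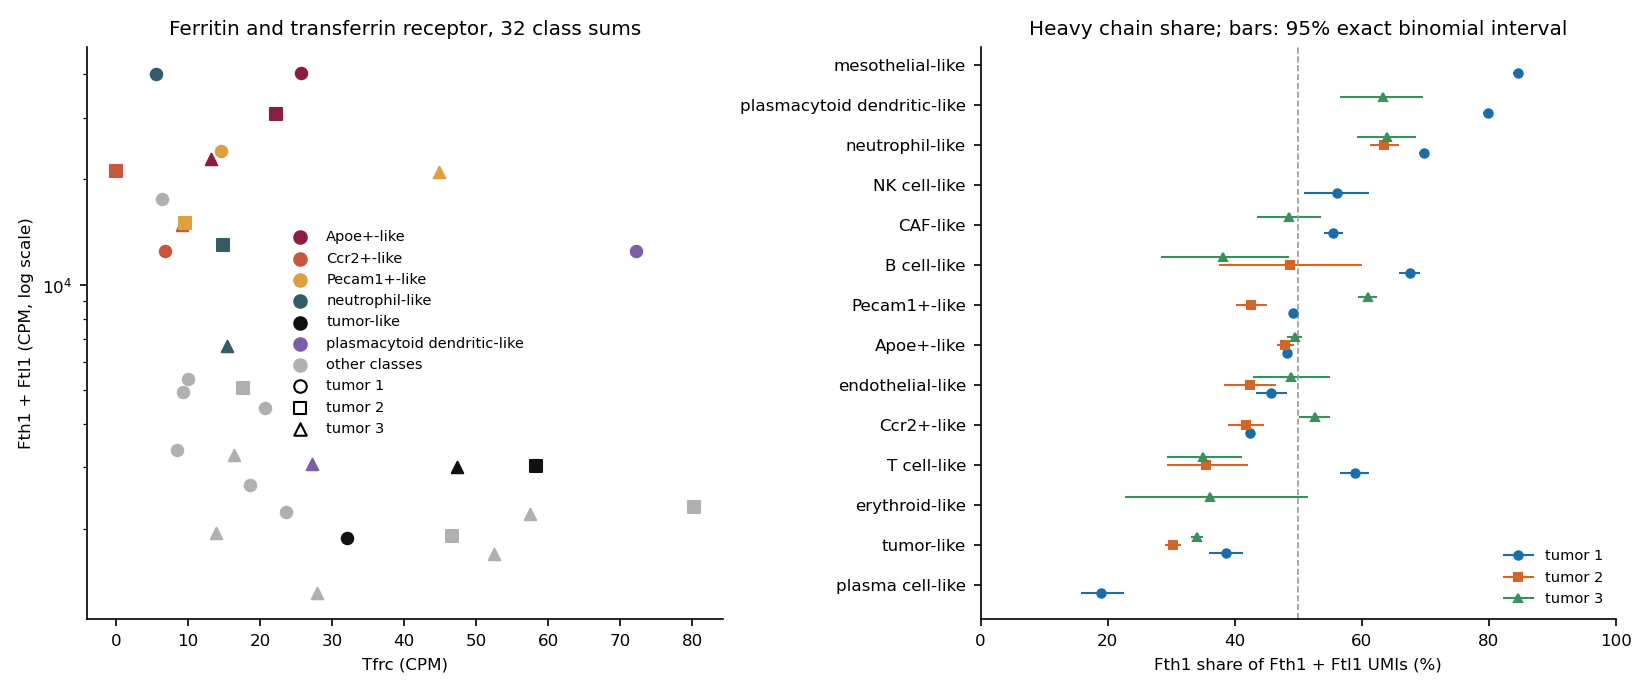
Left, summed CPM of the ferritin chains (log scale) against CPM of Tfrc in 32 class sums, coloured by class with 1 symbol per tumor. Right, Fth1 as a percent of Fth1 and Ftl1 UMIs, with 95% exact binomial intervals as bars and a dashed line at equal UMI counts. Macrophage-like and neutrophil-like sums lie high on the left at mostly low Tfrc, tumor-like sums lie low, and the heavy-chain share of neutrophil-like cells (63.6 to 69.7%) lies above that of Apoe+-like cells (47.9 to 49.4%).

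Cells with Spic often carried Vcam1 and Slc40a1 among Apoe+-like cells and rarely did in the other subsets. So that shallow cells did not set the shares, joint detection was read in cells of at least 5000 UMIs. Depth was not evened out above this floor, so Spic-positive and Spic-negative cells may differ in depth, which was not tested. Of the 100 such Apoe+-like cells, 96 were of the Ccl8-led subcluster, so the shares hardly describe the Gpnmb-led cells. Spic was found in 57, and Vcam1 was found in 71.9% of these and 53.5% of the Spic-negative cells. Within tumors, these shares were 71.4% and 47.1% in tumor 1 but 62.5% and 66.7% in the 22 cells of tumor 3, so the direction for Vcam1 was not the same in both. For Slc40a1 the shares were 66.7% and 37.2% (54.3% and 29.4% in tumor 1, 81.3% and 50% in tumor 3), and for Cd5l 21.1% and 20.9%. All of Spic, Vcam1, Slc40a1 and Cd5l were found together in 10 cells and none of them in 15. Of 192 Pecam1+-like cells, 57 also had Spic, yet Vcam1 was found in 3 and Slc40a1 in 7 of these. Of 231 Ccr2+-like cells, 28 had Spic, with Vcam1 and Slc40a1 in 0 of them. None of the 4 genes was found in 64.6% of the Pecam1+-like and 83.1% of the Ccr2+-like cells. Most of these deep cells came from tumor 1 (69 of 100 Apoe+-like, 180 of 192 Pecam1+-like and 219 of 231 Ccr2+-like cells).

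Within Apoe+-like cells the set was not uniform. Spic was found in 52.7% of the Ccl8-led cells and 5.52% of the Gpnmb-led cells, and in 8.04% and 0% after thinning. Vcam1 was found in 63.4% and 44.1%, and in 37.5% and 24.1% after thinning, with 831, 3076 and 790 CPM in the Ccl8-led and 1500.0, 890.1 and 379.8 CPM in the Gpnmb-led sums, so the order of the sums was reversed in tumor 1. Cd5l was found in 18.8% and 30.3%, and in 8.93% and 19.3% after thinning. Its sums were 363, 2863 and 147 CPM in the Ccl8-led and 1454, 808 and 588 CPM in the Gpnmb-led cells, so tumor 2 ran against tumors 1 and 3. Slc40a1 was found in 55.4% and 28.3%, but in 12.5% and 14.5% after thinning, so no order is read from it. Per sum, Slc40a1 had 180, 1371 and 741 CPM in the Ccl8-led cells and 551, 231 and 145 CPM in the Gpnmb-led cells, in which tumor-cell marker RNA was also high in tumors 2 and 3. The fitted log2 difference of Apoe+-like cells from the mean of the other subsets, given here as a description, was 6.88 ± 0.71 (SE) for Vcam1, 6.96 ± 1.11 for Cd5l, 5.70 ± 0.68 for Slc40a1, 2.07 ± 0.48 for Hmox1 and 1.07 ± 0.50 for Spic. It was 0.69 ± 0.27 for Fth1, 0.69 ± 0.26 for Ftl1 and 0.31 ± 0.32 for Slc11a1. Cd163 and Tfrc did not pass the filter on low counts. Without the Gpnmb-led subcluster each of these 8 differences was larger, from 7.31 for Cd5l and 7.22 for Vcam1 to 1.59 for Spic and 0.68 for Slc11a1.

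The genes whose levels ran most like a member's over the 32 sums, among 8285 genes, were general macrophage genes for several members. Slc11a1 ran with Csf1r (Pearson r 0.96), Igsf6 (0.95) and Lst1 (0.94), and Ftl1 with Csf1r (0.93), Clec4a2 (0.92) and Igsf6 (0.91). Spic ran with Hfe, Aif1 and Adgre1 (0.88 to 0.89). Cd5l ran with Atp6v0d2 (0.88), Fcna (0.87) and Abcc3 (0.85), and Vcam1 with Itga9 and Man1c1 (0.83 each). Slc40a1 ran with Arl11, Trpm2 and Hk3 (0.81 to 0.86), Hmox1 with Cxcl16 (0.86) and Csf1r (0.84), and Fth1 with Slc15a3, Cd300c2 and Tlr2 (0.89 each). Tfrc ran with none as closely, with D030056L22Rik, Tex30 and Ddx49 at 0.70 to 0.76. The sums share tumors and differ in depth.

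Other genes of iron and heme handling, and genes of red pulp and of uptake of dying or red cells, were tested to ask whether they followed the set. A list of 62 genes in 7 roles was compared between classes with edgeR's quasi-likelihood test on the sums, two-sided, at an adjusted p (Benjamini-Hochberg over all genes tested) of 0.05. These genes, Hjv excepted, were held out of the clustering, but genes expressed with them formed the classes, so the test measures how far a difference exceeds the spread over 3 tumors. In the macrophage subsets 3377 genes passed the filter on low counts, 21 of the list among them. Of these 21, 8 were higher in Apoe+-like cells (4.74% of all genes tested were) and 0 were lower (4.35% of all were). Of the 8, 4 were of the red pulp and uptake role, which held 6 of the 21 genes. At an unadjusted p under 0.05, 9 were higher and 1 lower, and DESeq2 gave 9 and 0 (4.59% and 4.41% of all genes). The median log2 difference was 0.53 for the 21 genes and -0.03 for all genes.

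Receptors for dying cells and modified proteins were the largest of these differences, with 4 of 6 tested genes of the red pulp and uptake role higher. Stab1, the scavenger receptor stabilin-1, had 208, 184 and 238 CPM in Apoe+-like cells and no more than 36.6 CPM in any other subset sum, a log2 difference of 4.20 ± 0.49 (edgeR adjusted p = 0.000959). Mrc1, the mannose receptor, had 74.1, 200.4 and 285 CPM, against 17.5 to 45.4 CPM in Ccr2+-like and 0 to 4.64 CPM in Pecam1+-like cells, a difference of 4.12 ± 0.55 (edgeR adjusted p = 0.00167). Mertk and Axl, receptors for apoptotic cells, differed by 3.93 ± 0.45 and 3.33 ± 0.46. For each of these 4 genes the Apoe+-like sums lay above all sums of the other subsets. Sirpa, which reads the CD47 signal on red cells, differed by 0.86 ± 0.25 (edgeR adjusted p = 0.0549), and Nr1h3, a sterol-sensing nuclear receptor, by 0.53 ± 0.42 (edgeR adjusted p = 0.541), and neither passed.

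In the roles of heme handling, iron uptake and ferritin partners, 2 of 5, 1 of 2 and 1 of 3 tested genes were higher, while Blvra, Hmox2, Lrp1, Hfe, Pcbp1 and Pcbp2 did not pass. Slc48a1, which carries heme out of the phagolysosome, had 143, 239 and 76.2 CPM in Apoe+-like cells, 34.5, 9.51 and 24.9 CPM in Pecam1+-like and 32.4, 105 and 18.3 CPM in Ccr2+-like cells, a difference of 2.19 ± 0.53 (edgeR adjusted p = 0.0297). Its groups overlapped through the Ccr2+-like sum of tumor 2, which held 6 UMIs, and the call was lost whichever tumor was left out (edgeR adjusted p = 0.0792 to 0.1004). Trf, transferrin itself, had 247, 356 and 344 CPM and differed by 1.74 ± 0.31, and its call was lost without tumor 2 and without tumor 3. Ncoa4, the receptor that hands ferritin to autophagy, and Blvrb, a biliverdin reductase, were also higher, by 1.71 ± 0.33 and 1.45 ± 0.28, and are named as the rest of the 8. The call of Ncoa4 was lost whichever tumor was left out, and that of Blvrb without tumor 2 or tumor 3. The 4 tested iron and heme sensors did not pass in either direction, with a median of -0.52. Without tumors 1, 2 and 3 in turn, 7 of 22, 4 of 40 and 5 of 41 tested genes of the list were called higher in Apoe+-like cells, beside 3.72%, 0.891% and 1.55% of all genes, and Axl missed the threshold without tumor 2 (edgeR adjusted p = 0.0571). Without the Gpnmb-led subcluster 9 of 21 were called higher, beside 7.04% of all genes.

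**Figure D4:**
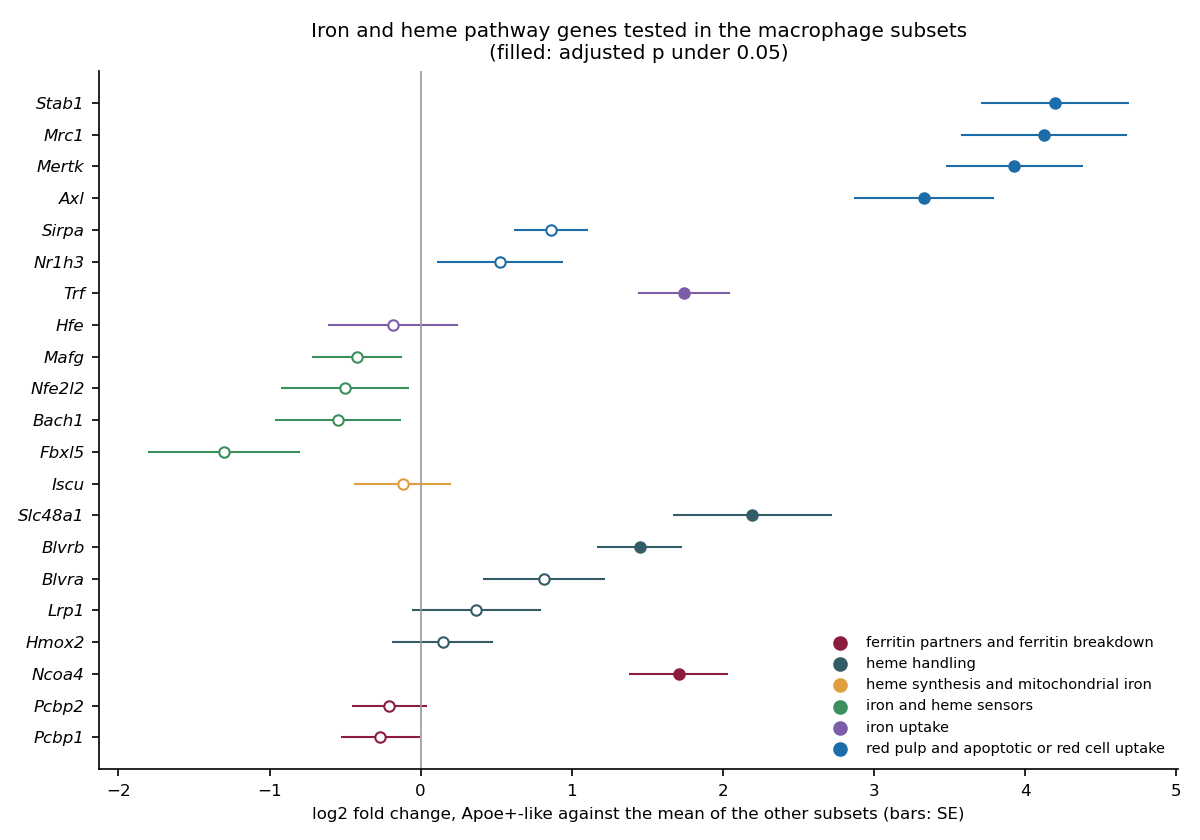
Log2 difference of Apoe+-like cells from the mean of the other macrophage subsets (bars: SE) for the 21 genes of the list tested. Points are coloured by role, 6 being of the red pulp and uptake role, and filled at an adjusted p under 0.05. Stab1, Mrc1, Mertk and Axl stand at 3.33 to 4.20, the called heme and iron genes at 1.45 to 2.19, and the open points between -1.30 and 0.86.

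Pecam1+-like cells were the low side of part of this contrast. Of the 21 genes, 3 were lower (1.63% of all genes were): Mrc1 (-4.57 ± 0.77), Stab1 (-2.66 ± 0.62) and Trf (-1.42 ± 0.35), with edgeR adjusted p of 0.0130, 0.0382 and 0.0452, and 0 were higher (3.26% of all were; 3 at an unadjusted p under 0.05 and 0 in DESeq2). Without tumors 1, 2 and 3 in turn, 2, 0 and 0 of the list were called lower, beside 1.73%, 0% and 0% of all genes. In Ccr2+-like cells 0 were higher (0.0296% of all) and 0 lower (0% of all), with 1 and 6 at an unadjusted p under 0.05 and 0 and 0 in DESeq2. The classes of a tumor come from the same mouse, and with tumor as a replicate block more was called. Apoe+-like cells then had 10 of the 21 higher (10.2% of all genes were) and 1 lower (16.8%), Ccr2+-like cells 1 higher (2.75%) and 6 lower (2.93%), and Pecam1+-like cells 4 higher (15.2%) and 6 lower (7.05%). The gene lower in Apoe+-like and higher in Ccr2+-like cells was Fbxl5, the iron-sensing ligase subunit, named after its values were seen. The 4 higher in Pecam1+-like cells are near the share of all genes.

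Against all other classes, 43 of the list were among 8294 genes tested. Of these, 17 were higher in Apoe+-like cells (8.71% of all genes were) and 0 lower (0.0121% of all; 0 at an unadjusted p under 0.05 and 0 in DESeq2). The 17 were 8 of 9 uptake genes, 5 of 6 heme handling genes, 3 of 6 iron uptake genes and Ncoa4, with 0 of 11 genes of heme synthesis and mitochondrial iron and 0 of 7 sensors. The 6 with the largest differences were Mrc1 (7.30 ± 0.58), Mertk (6.22 ± 0.45), Stab1 (5.91 ± 0.45), Marco (5.82 ± 1.10), a scavenger receptor, Sirpa (5.26 ± 0.43) and Axl (5.09 ± 0.53). DESeq2 called 14 higher (4.94% of all genes were), without Marco (adjusted p = 0.158 in DESeq2). The contrast averages log levels, so a gene high in a few other classes can be called. Gas6, the ligand of Axl and Mertk, named after its values were seen, was called at a mean of 94.6 CPM against 94.3 CPM over the other classes, and was higher than their mean in 2 of 3 tumors.

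Neutrophil-like cells had 10 of the 43 genes higher (15.6% of all genes were) and 0 lower (1.13% of all; 1 at an unadjusted p under 0.05 and 0 in DESeq2). Lcn2, which binds the iron carriers of bacteria, had 7285, 3870.5 and 356 CPM (log2 difference 9.61 ± 0.70), and the highest sum of another class was 259.7 CPM. Steap4, a metalloreductase, had 740, 209 and 139 CPM (7.95 ± 0.52), and Fbxl5 had 991, 373 and 263 CPM (4.68 ± 0.42). Sirpa (4.50 ± 0.47), Slc25a37, the mitochondrial iron importer (3.38 ± 0.59), and Alas1, the first enzyme of heme synthesis (2.79 ± 0.49), were the other three named by the rule. Of the 7 sensors tested, 5 were higher. Tumor 1 had the highest level of each of these 6 genes in neutrophil-like cells. Without tumor 1, 5 of 31 tested genes of the list were called higher, beside 11.5% of all genes, and Slc25a37 and Alas1 no longer passed the filter on low counts.

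In tumor-like cells no direction is given for the list, since edgeR and DESeq2, which differ in scaling, spread and test, gave opposite splits. edgeR's fit had 4 genes higher (30.9% of all genes were) and 1 lower (1.25% of all). DESeq2 had 0 higher (2.29% of all genes were) and 21 lower (22.5% of all). The median of all genes was 0.51 in edgeR and -0.52 in DESeq2. Nfe2l2, which encodes the oxidative stress factor NRF2, was lower in both, with 23.3, 10.1 and 7.84 CPM in tumor-like cells against a mean of 107 CPM over the other classes (edgeR log2 difference -2.58 ± 0.65, DESeq2 -3.26). Keap1, which holds NRF2 in check, and Urod, an enzyme of heme synthesis, were higher in edgeR (1.499 ± 0.55 and 1.437 ± 0.48) and not called in DESeq2 (0.38 and 0.30).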

How the data were processed

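Single-cell RNA-seq (10x Chromium 3′ v3.1) of 3 TH-MYCN tumors was used, 1 mouse each. The authors deposited raw UMI counts per gene and barcode, made with Cell Ranger 3.1.0 on mm10 per the submitters' processing notes, and normalized values of the cells they kept, made with Seurat 3.1.5 after removal of ambient RNA, doublets and outlying barcodes. Each deposited normalized value was a corrected count to which 1 had been added before its natural log was taken. They defined the kept cells and gave 1 alternative, since corrected counts exceeded raw counts in 439297, 7383 and 7723 entries of tumors 1, 2 and 3. No further doublet removal was done.

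Raw counts of kept cells were clustered with Seurat 5.3.0 in R 4.3.3 (CCA integration, 2000 variable genes, 30 dimensions, 20 neighbors, resolution 1, and 0.5 for macrophage-like cells), with 72 genes held out (the member and pathway genes except Hjv, and the pseudogene Ftl1-ps1). A cluster was named where at least 3 markers had a fold of 2 or more in at least 10% of its cells. Counts were summed per class and tumor (at least 10 cells), and a class was compared with the unweighted mean of the others in edgeR 4.0.16 (TMM scaling, its filter on low counts, two-sided quasi-likelihood test, Benjamini-Hochberg over all genes tested). DESeq2 1.42.0 was an alternative. Correlations used log2 CPM with a prior count of 2. Shares have 95% exact binomial intervals, and cells were also thinned to 500 UMIs. A count of 0 allows up to 3 counts.

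Replicate numbers are the mice, so sums of a tumor are paired. Deviations of macrophage subsets from their means correlated at 0.220 to 0.728 within a tumor (9 pairs, 3377 genes) and -0.526 to 0.200 between tumors (18 pairs). On simulated counts of the subset comparison of Apoe+-like cells (3377 genes), 44.1% of log2 changes of 2 and 97.6% of changes of 4 were recovered, and 1.56% of calls were false. The simulation gave every gene the same dispersion and held no tumor effect, so these rates need not hold for the paired sums.

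The members and gene lists were chosen with earlier results of these data known. Named besides the 10 members were, per comparison and direction, up to 6 called pathway genes with the largest log2 difference and the same direction in each tumor, and per member the 3 genes of highest correlation. Some genes that this rule names are not reported here. Other genes were named after their values were seen. Alternatives were no filter, DESeq2, plain library size (for levels), tumor as a block, corrected counts, no integration, subset resolution of 1, leaving out each tumor and, added after seeing the data, leaving out the Gpnmb-led subcluster. Gene positions and UTRs came from the GENCODE annotation of GRCm38.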

Additional observations from a re-analysis of the deposited data

Results flagged for a closer look

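Barcodes the authors left out held RNA of the set. With thresholds chosen after seeing the data (at least 500 UMIs, 3 C1q UMIs, C1q genes at 0.2% and macrophage markers at 0.3% of UMIs), 50 left-out barcodes (14, 6 and 30 in tumors 1, 2 and 3) were C1q-positive, and 7922 others were not. Each value below was flagged because it lay above the limit that a count of 0 allows in data the comparisons do not use, and its cause was not tested.

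In tumor 1 these barcodes had, in unscaled CPM, 49.7 of Spic, 331 of Slc40a1, 842 of Hmox1, 1514 of Cd5l, 1476.5 of Vcam1, 11795.5 of Fth1, 11710.3 of Ftl1, 21.3 of Tfrc and 179.8 of Slc11a1. In tumor 2 they had 434 of Slc40a1, 155 of Hmox1, 5606 of Cd5l, 4553 of Vcam1, 2199 of Fth1, 3872 of Ftl1 and 372 of Slc11a1. In tumor 3 they had 206 of Spic, 843 of Slc40a1, 2377 of Hmox1, 53.1 of Cd163, 1043 of Cd5l, 1209 of Vcam1, 20586.5 of Fth1, 19189 of Ftl1, 16.6 of Tfrc and 199 of Slc11a1. The 16 Cd163 UMIs came from 1 barcode. In the other left-out barcodes of tumors 1, 2 and 3, Spic had 5.86, 0 and 0.757 CPM, Slc40a1 5.39, 0.525 and 3.30, Cd5l 3.05, 1.47 and 1.58, Slc11a1 11.5, 0.525 and 1.79, Hmox1 69.1, 1.78 and 3.92 and Vcam1 163, 1.99 and 3.99. Fth1 had 4183, 693 and 475, Ftl1 1764, 921 and 845 and Tfrc 19.2, 146 and 61.3. Tfrc was thus not higher in the C1q-positive barcodes in tumor 3 and was near the same level in tumor 1. In tumor 2 the C1q-positive barcodes had 2 Tfrc UMIs (61.9 CPM), too few to be flagged.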

How the results depend on the processing

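With tumor as a replicate block, 1 of the 21 pathway genes was lower in Apoe+-like cells (16.8% of all genes were). In Ccr2+-like cells 1 was higher (2.75% of all) and 6 lower (2.93%). Pecam1+-like cells had 4 higher (15.2%) and 6 lower (7.05%). Of the 43 tested in tumor-like cells, 8 were higher (35.2% of all genes were) and 2 lower (1.59%). Over all genes the block raised the calls of Apoe+-like cells among subsets from 160 higher and 147 lower to 346 and 567, and without the filter 320 were higher. In tumor-like cells, 0 pathway genes were higher with DESeq2 (2.29% of all genes were), 1 without the filter (13.8%) and 0 with corrected counts (10.1%). There 21 were lower with DESeq2 (22.5% of all), 2 without the filter (0.975%), 0 with corrected counts (0.588%) and 6 without integration (13.8%). Over all genes DESeq2 called 190 higher and 1865 lower there, against 2559 and 104 with edgeR. In neutrophil-like cells 6 of 36 were higher with corrected counts, beside 14.9% of all genes. Leaving out each tumor gave 4 to 7 higher in Apoe+-like cells among subsets (0.891% to 3.72% of all genes were). It gave 0 to 2 lower in Pecam1+-like cells (0% to 1.73%) and 5 to 9 higher in neutrophil-like cells (9.53% to 11.5%). Tumor-like cells had 1 to 2 higher (10.1% to 19.9%) and 0 to 4 lower (0.353% to 5.86%). No single log2 difference of a named gene changed sign, but the split of the list in tumor-like cells did, as given above. The mean level of Spic in Apoe+-like cells was 190.4 CPM with corrected counts, 218.9 CPM without integration and 203 CPM without the Gpnmb-led subcluster, and over the alternatives that keep all tumors 149 mean levels moved by less than 1 SD over tumors and 11 by more. Thinning to 500 UMIs moved 42 of the shares by more than their interval and left 8 within it. At a subset resolution of 1, Ccr2+-like cells had 1 sum, and without integration Pecam1+-like cells had 1, assumed to vary like the other groups. The cause of these differences was not tested. Tumor 2 had 11 Ccr2+-like cells and 23 Pecam1+-like cells, so depth limits low genes there.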

Other observations

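A macrophage-like subcluster of 53 cells (18, 22 and 13), led by Lipg, Ighg2b, Negr1 and Itgad, had too few markers for a name and entered no comparison. It carried Spic without Cd5l. Spic was at 257.7, 82.4 and 96.5 CPM and was found in 15 of the 53 cells (3.77% thinned to 500 UMIs), with 70.3% of its 74 UMIs from 3 cells, while Cd5l was found in 0 of 53, which allows a share of up to 5.66%. Vcam1 had 5 UMIs. Slc40a1 had 50 UMIs, 45 of them in 1 cell of tumor 1, and Slc11a1 was found in 33 cells. Fth1 had 16037, 7115 and 6552 CPM.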
